A study of Rattus norvegicus with 8 samples.

Results

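miR-187 is encoded by a single hairpin gene in the rat, Mir187, and was followed here in rat kidney after treatment with aristolochic acid (AA). All rows of the deposited read counts whose name is miR-187 with any arm suffix were taken, which gave 3 of the 620 listed miRNA rows: rno-miR-187, rno-miR-187* and a row spelled rno-mir-187*. The asterisk marks the opposite, usually less abundant arm of the hairpin. The kidneys came from 8 male Fisher 344 rats of the Big Blue line, which bears a reporter transgene for scoring mutations, aged 6 weeks when treatment began. The 4 AA rats received 10 mg/kg of AA as its sodium salt by gavage, 5 times a week for 12 weeks, and the 4 control (CTL) rats received 0.9% sodium chloride on that schedule. The AA was 96% pure and held 40% AAI and 56% AAII, and kidneys were taken 1 day after the last dose. Each library came from 1 rat and is named here by its group and number, such as AA 4. miR-187 was chosen by its read counts in the contrast of AA with CTL, so its levels and fold changes in this contrast are a description without a test.

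A miRNA hairpin is cut by Drosha and Dicer into a short duplex, and the arm that stays in the Argonaute complex guides it to target mRNAs mainly through its seed, bases 2 to 8. miR-187 has been described in human monocytes as induced by interleukin-10 and as a brake on the release of inflammatory cytokines, and in clear cell renal carcinoma as lower than in normal kidney. AA is a plant nitroarene that forms DNA adducts, damages the proximal tubule and causes tumors of the kidney and urinary tract.

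The mature sequences of both arms are shown because they set how securely reads can be assigned to this hairpin. They were taken from RefSeq on the assembly GRCr8, written 5′ to 3′ with the seed in capitals. The 3p arm corresponds to the older name miR-187 and the 5p arm to miR-187*, while the deposited table holds no sequences and no source states what separates the 2 spellings of the opposite arm.
rno-miR-187-3p: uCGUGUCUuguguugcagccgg
rno-miR-187-5p: aGGCUACAacacaggacc
The 3p arm lies at chr18:16005964-16005985 on the minus strand and the 5p arm at chr18:16006005-16006022 on the same strand. No other gene of the RefSeq table overlapped Mir187, so it is annotated as intergenic, and the nearest protein-coding genes on either side were Galnt1 and LOC134482998. The 3p arm has 22 bases, of which 8 are G and 8 are U, and the 5p arm has 18 bases. In the predicted fold of the hairpin, 15 bases of the 3p arm paired with the 5p arm.

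None of 690 other mature rat sequences in RefSeq shared the seed of either arm. The sequence closest to the 3p arm was rno-miR-632 at 7 edits, and the longest run of identical bases with any of them was 9, in rno-miR-153-5p. For the 5p arm the closest sequences were 8 edits away, and rno-miR-138-1-3p alone shared bases 2 to 7.

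rno-miR-187 was a minor miRNA of the control kidney. It had 77, 94, 95 and 111 reads in CTL 1 to CTL 4, out of 13736874 to 15525397 reads over all listed rows per control library. On the CPM scale, reads divided by the TMM-scaled library size of edgeR and multiplied by 1e6, these were 5.77, 6.92, 5.89 and 9.04 CPM, a mean of 6.91 ± 1.51 (SD, n = 4). The control libraries were close together, and their coefficient of variation of 21.9% stood beside 10.3% expected from counting alone. By mean level in the control libraries miR-187 took place 235 of the 620 rows. The 3 rows just above it (rno-miR-421*, rno-miR-135b and rno-miR-338, 6.95 to 7.04 CPM) and the 3 just below (rno-miR-532-3p, rno-miR-3559-3p and rno-miR-25*, 6.44 to 6.86 CPM) all overlapped it across the 4 control libraries. These values are reads per miRNA, and the order of neighbours depends also on how well each sequence was ligated and amplified.

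In the AA kidneys rno-miR-187 had 483, 719, 309 and 4131 reads in AA 1 to AA 4, out of 13412373 to 15616670 reads over all listed rows per library. The CPM values were 37.3, 39.0, 21.3 and 245. Every AA library lay above every control library, and AA 4 lay far above the other AA libraries. Exact 95% Poisson intervals ran from 18.95 to 23.8 CPM in AA 3, the lowest AA library, and from 7.44 to 10.9 CPM in CTL 4, the highest control library, and they take in counting error alone, because PCR copies of 1 molecule are counted as separate reads. The mean of the AA group was 85.6 CPM with an SD of 106 (n = 4), and the median was 38.2 CPM. Without AA 4 the mean was 32.5 ± 9.80 CPM (SD, n = 3), with a coefficient of variation of 30.1%. miR-187 ranked 150, 148, 178 and 94 among the 620 rows in AA 1 to AA 4, against 221 to 246 in the control libraries.

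**Figure D1:**
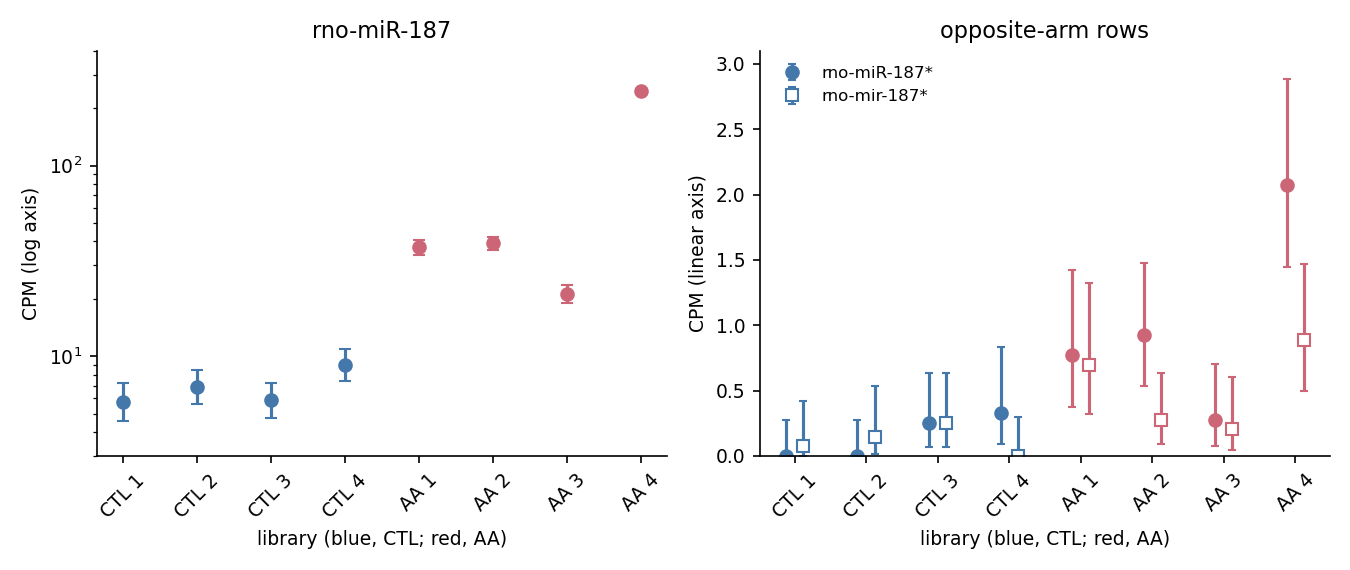
CPM of the 3 miR-187 rows in each of the 8 libraries, rno-miR-187 on a log axis (left) and both rows of the opposite arm on a linear axis (right), with blue for CTL, red for AA and bars for exact 95% Poisson intervals. rno-miR-187 sits between 5.77 and 9.04 CPM in the control libraries, between 21.3 and 39.0 in AA 1 to AA 3 and at 245 in AA 4, while the rows of the opposite arm overlap between the groups.

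The log2 fold change of rno-miR-187 in AA over CTL was 3.63 with a standard error of 0.73, from the edgeR quasi-likelihood model. That model was fitted over 367 rows, those that reached 10 reads in 4 or more libraries. This is a fold of 12.4. Without AA 4 the log2 fold change was 2.12 (standard error 0.29), a fold of 4.33 against 12.4, so that its size depends on this 1 library. In the 6 libraries numbered 1 to 3, an alternative added once the data had been examined, the log2 fold change was 2.34 (standard error 0.27). Across the same 367 miRNAs, 16.3% passed an adjusted p-value of 0.05 between the groups in that model, 10.4% higher and 5.99% lower in AA. The AA and control libraries did not overlap for 24.3% of them, and for 14.4% AA was higher. miR-187 is 1 of these by the values that chose it, and nothing is read from its place among them.

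**Figure D2:**
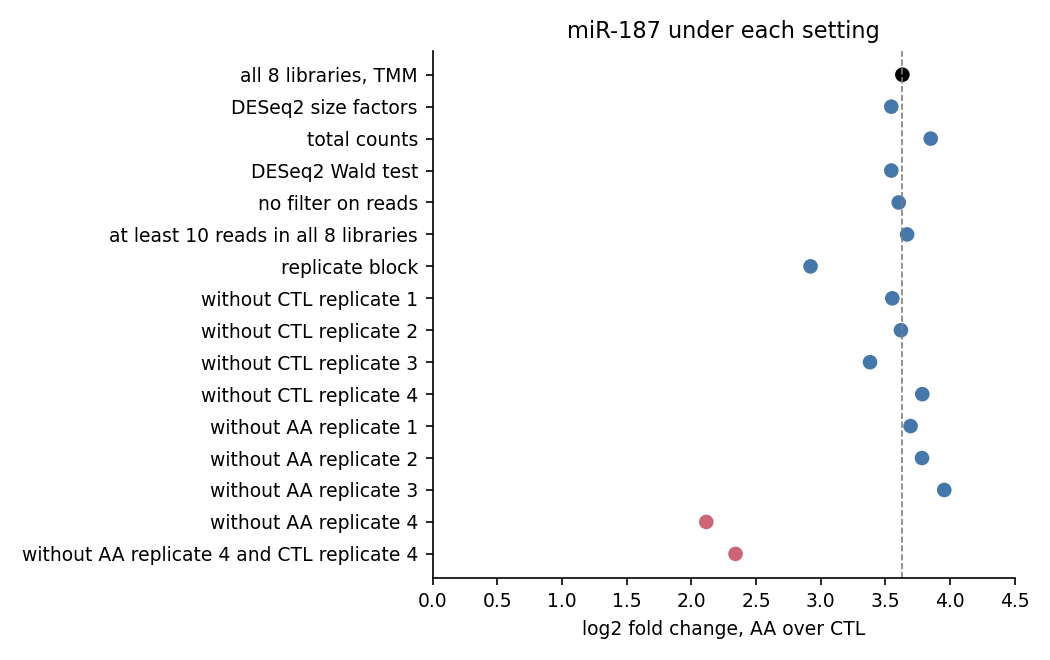
Log2 fold change of rno-miR-187 in AA over CTL (horizontal axis) under each scaling, filter, model and left-out library (rows), with the dashed line at 3.63, the value over all 8 libraries. The settings without AA replicate 4 lie at 2.12 and 2.34, and the other alternatives lie between 2.92 and 3.96.

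Both rows of the opposite arm were at the edge of detection. rno-miR-187* had 0, 0, 4 and 4 reads in CTL 1 to CTL 4 and 10, 17, 4 and 35 in AA 1 to AA 4. AA 4 was again the highest, and AA 3, with 4 reads, did not separate from CTL 3 and CTL 4. The row spelled rno-mir-187* had 1, 2, 4 and 0 reads in the control libraries and 9, 5, 3 and 15 in the AA libraries. Here too AA 3 overlapped the control libraries, and neither row reached the 10 reads in 4 libraries that the fit required, so that no fitted value is given for them.

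Summed over the groups, rno-miR-187* had 8 control reads and 66 AA reads. On the CPM scale this is a ratio of 7.27 (95% exact interval 3.48 to 17.5, for counting error only). Without AA 4 the ratio was 4.67 (2.10 to 11.8). rno-mir-187* had 7 and 32 reads, a ratio of 4.03 (1.75 to 10.8), and 2.93 (1.15 to 8.35) without AA 4. These intervals are wide, and they pool the reads of different rats, so they are not read as a test between the groups. A count of 0 in a library allows up to 3.69 reads at the upper end of its interval.

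The arms kept unequal abundance in every library. Both opposite-arm rows together made up 1.28%, 2.08%, 7.77% and 3.48% of the miR-187 reads in CTL 1 to CTL 4. The shares in AA 1 to AA 4 were 3.78%, 2.97%, 2.22% and 1.20%. AA 4 had the lowest share of the 8 libraries, although it had the most reads of every row. Pooled over libraries, the share was 3.83% of 392 reads in the control group (95% Clopper-Pearson interval 2.16% to 6.23%) and 3.08% of 1559 reads in AA 1 to AA 3 (2.28% to 4.06%), and these intervals overlap. In AA 4 it was 1.20% of 4181 reads (0.889% to 1.57%), below the pooled interval of the other AA libraries. All of these intervals take in counting error alone, and the pooled ones join the reads of different rats. Taken singly, the intervals of AA 3 (0.895% to 4.51%), CTL 1, CTL 2 and CTL 4 overlapped that of AA 4. Those of AA 1, AA 2 and CTL 3 lay above it. The gel band cut for the libraries was described as 22 to 30 nt, and the RefSeq 5p arm, with 18 bases, is shorter than that. The part of this size selection in the share of the opposite arm was not tested.

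AA 4 differed from AA 1 to AA 3 in few miRNAs to the same degree as in miR-187. On the log2 CPM scale, with 2 reads added to each count, miR-187 in AA 4 lay 2.96 above the mean of the other AA libraries, while the median over the 367 tested miRNAs was 0.03. It took place 3 in that order, and 4 miRNAs lay 2 or more above: rno-miR-1249, rno-miR-511*, rno-miR-187 and rno-miR-328a. In the other direction 7 miRNAs lay 2 or more below. Of these, rno-miR-741-3p (-3.31) and rno-miR-122 (-3.09) lay farther from the mean of the other AA libraries than miR-187 did. rno-mir-129-2*, rno-miR-323, rno-miR-802, rno-miR-369-3p and rno-miR-494 lay between -2.28 and -2.17. For miR-122, AA 4 was not outside the other AA libraries. Both arms together were at 1.19 CPM in AA 4 and at 0.696 to 539 CPM in AA 1 to AA 3. The miRNAs beside miR-187 here were named after their values were seen. In CTL 4, the control library of the same number, rno-miR-1249 lay 4.57 and rno-miR-328a 2.53 above the mean of CTL 1 to CTL 3. miR-187 lay 0.54 above in CTL 4 and rno-miR-511* lay at -0.55. The libraries numbered 4 in both groups thus stood high for rno-miR-1249 and rno-miR-328a, whereas miR-187 and rno-miR-511* stood this far out in AA 4 and not in CTL 4.

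**Figure D3:**
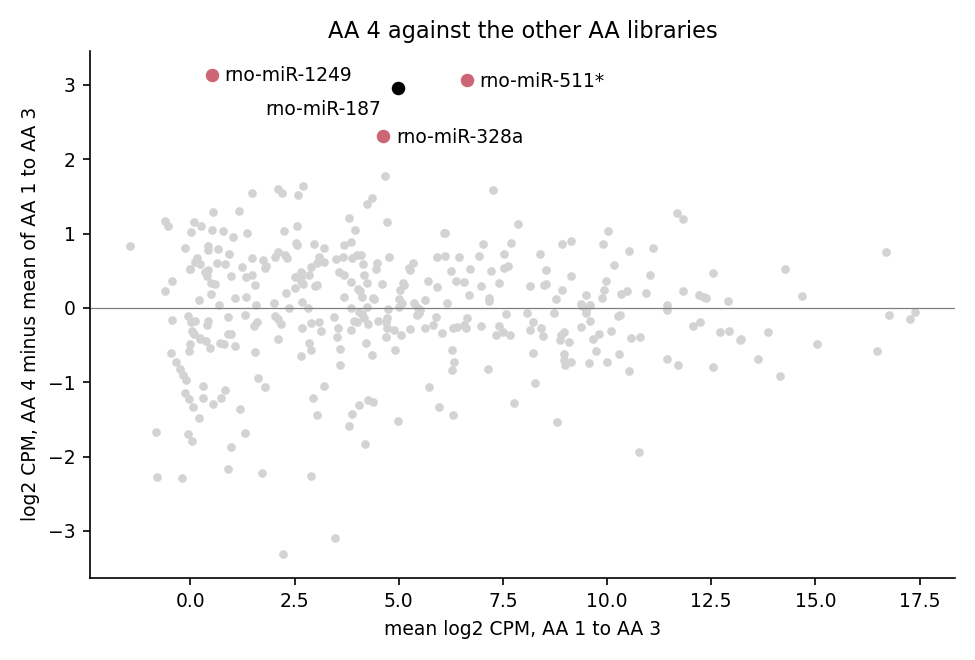
Each point is 1 of 367 tested miRNAs, with the mean log2 CPM of AA 1 to AA 3 on the horizontal axis and the log2 CPM of AA 4 minus that mean on the vertical axis. miR-187 (black) lies 2.96 above 0, beside rno-miR-511*, rno-miR-1249 and rno-miR-328a (red), and 7 miRNAs lie 2 or more below 0.

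The miRNA whose levels were most like those of miR-187 was rno-miR-511*. Likeness was measured as Pearson's r of log2 CPM over the 8 libraries, which fall into 2 groups and share AA 4 as their extreme, and it is given as a description among the 367 tested miRNAs. Because miR-187 was chosen by its counts in AA against CTL, an extreme r favours miRNAs that differ between the groups. The adjusted p-values of miRNAs picked by r are not independent of that choice. For rno-miR-511* r was 0.978, it was 0.929 for the deviations from the group means and 0.951 without AA 4. Over the 7 libraries without AA 4, the highest r was 0.964, reached by rno-miR-34c and rno-miR-34a. The CPM values of rno-miR-511* were 15.7, 14.0, 14.6 and 10.0 in CTL 1 to CTL 4 and 134, 106, 69.5 and 830 in AA 1 to AA 4. The AA libraries were all above the control libraries, AA 4 was the highest and AA 3 the lowest, which is also the case for miR-187. rno-miR-511 lies in an intron of Mrc1, the macrophage mannose receptor gene. rno-miR-511* rose by 4.39 on the log2 scale, with a standard error of 0.78 (Benjamini-Hochberg adjusted p = 0.00373 in the edgeR model), and without AA 4 the value was 2.82.

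The next by likeness were rno-miR-872* (r = 0.965), rno-miR-223 (0.960), rno-miR-152* (0.957) and rno-miR-425 (0.945). rno-miR-223, a miRNA of granulocytes and monocytes, was at 39.8, 38.8, 37.5 and 43.7 CPM in the control libraries and at 82.9, 80.1, 48.8 and 111 CPM in AA 1 to AA 4. AA 3 was again the lowest AA library and AA 4 the highest. Its log2 fold change was 1.02 (adjusted p = 0.0195 from edgeR). Leaving out CTL 1, CTL 2, CTL 3, AA 1 or AA 4 ended that call, with 0.71 as the value without AA 4. The log2 fold changes of rno-miR-425 and rno-miR-872* were 0.80 and 0.73 (adjusted p = 0.0276 and 0.041 from edgeR), and without AA 4 they were 0.48 and 0.41. The call of rno-miR-425 ended without any 1 of the 4 control libraries or AA 1, and that of rno-miR-872* ended without any 1 library other than AA 2. rno-miR-152* did not pass the test (log2 fold change 0.62, adjusted p = 0.14 from edgeR). The fold changes of these 4 miRNAs were smaller than that of miR-187. The order of the libraries within a group was not shared throughout, since CTL 4 was the lowest control library for rno-miR-425 (193 CPM) and rno-miR-872* (41.6 CPM) and the highest for miR-187. Among the AA libraries the lowest was AA 2 for both of these and AA 1 for rno-miR-152*, against AA 3 for miR-187. The r over 8 libraries takes in the difference between the groups.

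The miRNAs that ran most opposite to miR-187 were rno-miR-129-2* (r = -0.975), rno-miR-382* (-0.968) and rno-miR-191 (-0.955). rno-miR-129-2* was at 3.75, 3.39, 3.91 and 2.44 CPM in the control libraries and at 1.00, 0.868, 1.51 and 0.474 CPM in AA 1 to AA 4. It was lowest where miR-187 was highest, and within the AA group highest in AA 3. Its log2 level fell by 1.81 (edgeR, adjusted p = 0.00567), and that of rno-miR-382*, of the imprinted Dlk1-Dio3 cluster, fell by 1.56 (edgeR, adjusted p = 0.00886). rno-miR-191, at 7793 to 8839 CPM in the control libraries and 3417 to 6759 CPM in the AA libraries, had a log2 fold change of -0.64 and did not pass the test (adjusted p = 0.0539 from edgeR). It passed with DESeq2 size factors, in the DESeq2 test and without AA 1, AA 4 or both libraries numbered 4, with values from -0.88 to -0.56. miR-191 and miR-425 are encoded side by side in one host gene, Dalrd3.

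**Figure D4:**
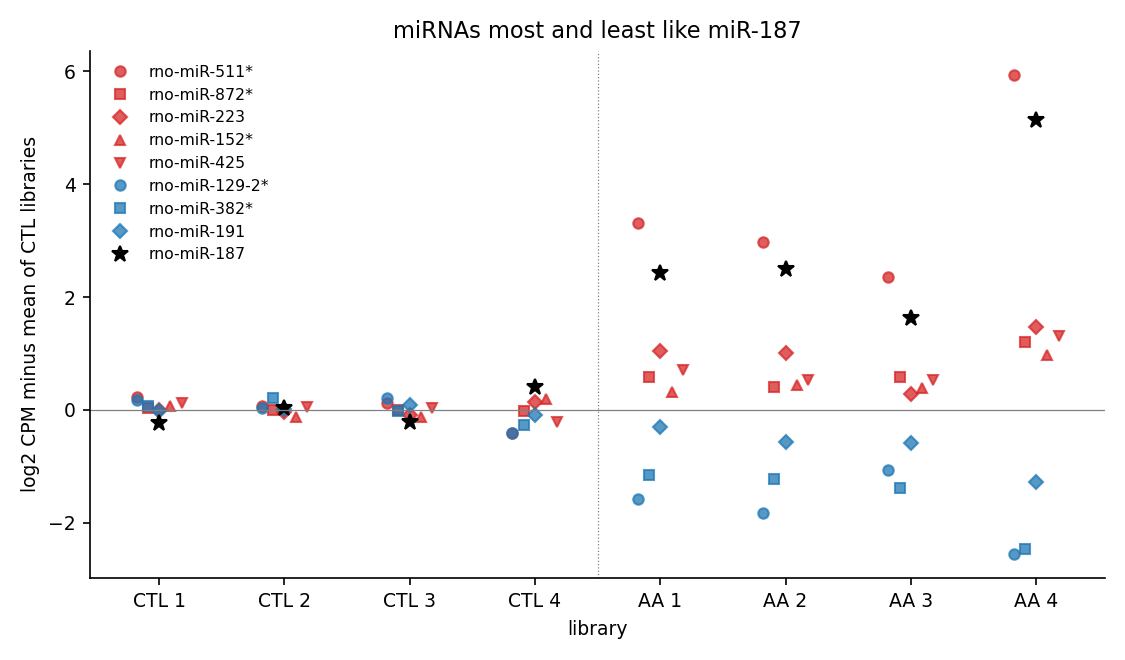
Log2 CPM of miR-187 (black stars) and of the 5 most like (red) and 3 least like (blue) miRNAs in each of the 8 libraries, minus the mean of the 4 control libraries. miR-187 and rno-miR-511* are lowest in AA 3 and highest in AA 4 among the AA libraries, while the other red miRNAs differ from the control mean by less.

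Within groups, apart from the difference between AA and CTL, the deviations of miR-187 ran most like those of rno-miR-450a (r = 0.946), rno-miR-511* (0.929), rno-miR-350 (0.923), rno-miR-542-5p (0.922) and rno-miR-325-3p (0.882). rno-miR-450a and rno-miR-542-5p belong to one cluster on the X chromosome. rno-miR-450a was at 210, 144, 120 and 463 CPM in AA 1 to AA 4 and at 96.2 to 123 CPM in the control libraries, so that AA 3 overlapped the controls. Except for rno-miR-511*, none of these passed the test between the groups (adjusted p from 0.092 to 0.305 from edgeR). rno-miR-450a passed with total counts (log2 fold change 1.27, against 1.06) and without AA 3 (1.28). With AA 4 left out, r of log2 CPM over 7 libraries was 0.785 for rno-miR-450a and 0.416 for rno-miR-325-3p. That r takes in the difference between the groups, and r of the deviations was not computed without AA 4.

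Several miRNAs of immune cells and of inflammation were higher in the AA libraries, as miR-187 was. In the leukocyte list (miR-142, miR-223 and miR-150, any arm), 2 of 5 tested rows were higher in AA and 0 were lower, with a median log2 fold change of 1.02. Over all 367 tested miRNAs 10.4% were higher and 5.99% lower, with a median of 0.06, and each list below is to be read against these shares. rno-miR-142-3p, of all blood cell lineages, rose from 954 ± 146.3 to 2649 ± 881 CPM (SD, n = 4 each; log2 fold change 1.47, adjusted p = 0.0018 from edgeR). Its opposite arm rno-miR-142-5p did not pass (log2 fold change 0.30, adjusted p = 0.56 from edgeR), and among the 8 libraries it was lowest in AA 4. The summed level of the list was 915 to 1265 CPM in the control libraries and 2059 to 4125 CPM in the AA libraries, with AA 4 at the top. Most of this sum was rno-miR-142-3p, at 3875 CPM in AA 4. The list had 1 higher row without AA 4. In bulk kidney, more cells of a type and more miRNA per cell cannot be told apart, and the part of leukocytes in the level of miR-187 was not tested.

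Among miRNAs described as responding to inflammatory signals in myeloid cells (miR-146a, miR-146b, miR-132, miR-212, miR-125b, miR-21, miR-147 and miR-9), 5 of 13 tested rows were higher in AA and 1 was lower, with a median log2 fold change of 0.87, beside 10.4% and 5.99% of all tested miRNAs. miR-155, also named in this list, was not analysed here. The same counts were found without AA 4. The 5 higher rows include both arms of miR-21, which come from the same hairpin and are not independent. rno-miR-146b, which damps Toll-like receptor signals, rose by 2.27 (log2; edgeR, adjusted p = 0.00138), whereas its close relative rno-miR-146a had a log2 fold change of -0.09 and did not pass (adjusted p = 0.71). rno-miR-132 and rno-miR-212, from one cluster, went up by 2.0 and 1.86 (log2; edgeR, adjusted p = 0.000696 and 0.00138). rno-miR-125b* was the row that was lower (log2 fold change -0.84, adjusted p = 0.0311 from edgeR), a call that ended without CTL 1, CTL 2, CTL 4 or AA 2. With each library omitted in turn its value ran from -1.08 to -0.65.

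In the list for fibrosis and injury (miR-21, miR-199a, miR-214 and miR-34a), 5 of 7 tested rows were higher in AA and 0 were lower, with a median log2 fold change of 1.63, again beside 10.4% and 5.99% of all tested miRNAs. Of the rows called higher, rno-miR-34a* had 0 to 5 reads in the control libraries and 34 to 56 in the AA libraries. It thus reached the filter only through the group in which it was high. Without AA 4, 3 of 6 were higher, since rno-miR-199a-3p was not called (log2 fold change 0.50, against 0.65 over all libraries) and rno-miR-34a* did not reach the filter. The call of rno-miR-199a-3p also ended in 6 of the other 7 fits that each omitted 1 library, all but the fit without AA 1. rno-miR-21, which rises in injured tubules and fibroblasts, went up by 1.99 and rno-miR-34a, a p53 target, by 4.48 (log2; edgeR, adjusted p = 0.00115 and 4.13e-06). The log2 fold change of miR-187 over all 8 libraries lay between these. miR-21 is in both of these lists, so their counts are not independent. The 5 higher rows here include both arms of miR-21 and both arms of miR-34a, and arms of the same hairpin are not independent either.

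For the nephron epithelium, no row was called higher in AA and some were called lower. Of 25 tested rows of nephron epithelium (miR-192, miR-194, miR-215, miR-204, miR-211, the miR-200 family with miR-141 and miR-429, and the miR-30 family), 0 were higher in AA and 3 were lower, with a median log2 fold change of -0.37. Over all tested miRNAs 10.4% were higher and 5.99% lower, and nothing particular to the list is read from its counts. At an unadjusted p under 0.05 the counts from edgeR were 1 higher and 4 lower, and DESeq2 called 0 higher and 4 lower. The lower rows were rno-miR-194 (-0.73), rno-miR-194* (-0.84) and rno-miR-204 (-0.80), and each of these calls ended with total counts in place of TMM scaling and without CTL 1, CTL 2 or CTL 4. They also ended without AA 2 for both miR-194 rows, without AA 3 for rno-miR-194 and rno-miR-204, and without AA 1 for rno-miR-204, and their values stayed between -1.06 and -0.66 with each library omitted in turn. In the list of miRNAs described, like miR-187, as lower in clear cell renal carcinoma (miR-141, miR-200c, miR-204, miR-30c, miR-135a and miR-138), 0 of 10 tested rows were higher and 3 were lower (edgeR; 1 higher at an unadjusted p under 0.05, and 0 higher by DESeq2). These were rno-miR-135a (log2 fold change -1.42, adjusted p = 0.00567 from edgeR), rno-miR-135a* (-2.08) and rno-miR-204. rno-miR-135a* had 2 to 9 reads in the AA libraries and reached the filter only through its control reads (13 to 27). The median log2 fold change of the list was -0.11. Uncalled rows went both ways, with rno-miR-141, rno-miR-141*, rno-miR-200c and rno-miR-138 at 0.13 to 0.64. rno-miR-30c, rno-miR-30c-1* and rno-miR-30c-2* were at -0.70 to -0.09. With 10.4% of all tested miRNAs called higher, a count of 0 among 10 rows is near the background. The 3 lower rows stand beside 5.99% of all tested miRNAs, and they include both arms of miR-135a and a row shared with the nephron list. miR-508 and miR-509, also named in the list, were not analysed here, and the list shares miR-141, miR-200c, miR-204 and miR-30c with the nephron list.

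**Figure D5:**
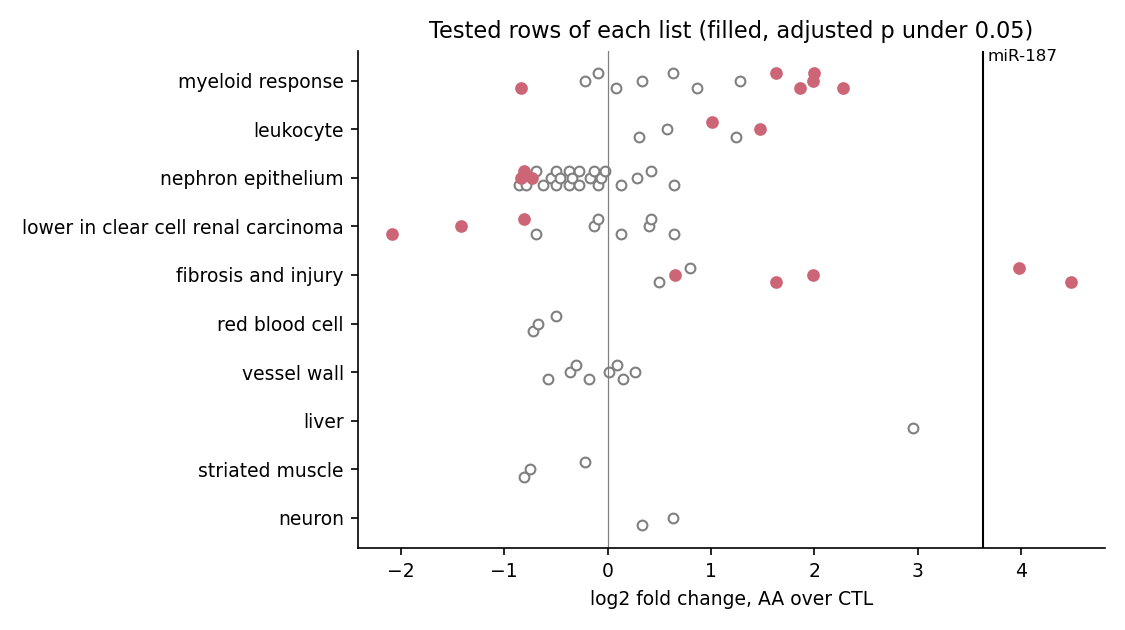
Log2 fold change in AA over CTL of every tested row of 10 lists, filled red where the adjusted p-value was under 0.05, with the black line at the 3.63 of miR-187. The called rows lie right of 0 for fibrosis and injury and for leukocytes, left of 0 for nephron epithelium and renal carcinoma, and rno-miR-34a and rno-miR-34a* lie beyond miR-187.

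Of the marker miRNAs of other tissues, no tested row was called by edgeR or by DESeq2. At an unadjusted p under 0.05 from edgeR, 1 red blood cell row was lower and 1 neuron row higher. Red blood cell miRNAs (miR-144 and miR-451, with miR-486 not analysed here) summed to 799 to 1138 CPM in the control libraries and 248 to 795 CPM in the AA libraries, with the lowest sum in AA 4 (0 of 3 tested rows called). miRNAs of the vessel wall (miR-126, miR-143 and miR-145; 0 of 8 called) and of striated muscle (miR-1, miR-133a, miR-133b and miR-206; 0 of 3 called) had median log2 fold changes of -0.09 and -0.75. Those linked to neurons (miR-124 and miR-9; 0 of 2 called) had 0.49, and both tested rows were arms of miR-9, which is also in the myeloid list. rno-miR-124 did not reach the filter and was not tested. Its mean was 0.098 CPM in CTL and 0.941 CPM in AA, and every AA library was above every control library. The latter held for 14.4% of all tested miRNAs. One field of the labels names the tissue as liver. The liver miRNA miR-122, both arms together, was at 4.34 to 54.7 CPM in the control libraries and 0.696 to 539 CPM in the AA libraries. The nephron list summed to at least 168400 CPM in every library. Its largest row was rno-miR-30a, with means of 125630 CPM in CTL and 111450 CPM in AA. The tissue of origin was not tested from these values. miR-122 stood at 1.19 CPM in AA 4, the library with the highest miR-187.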

How the data were processed

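Small RNA libraries of 4 AA and 4 CTL kidneys were read by Illumina sequencing. The authors mapped reads with miRanalyzer and Bowtie to known rat miRNAs (miRBase version 17), after reads under 17 bases were dropped and longer ones trimmed to 26, and deposited raw read counts for each miRNA in each library, not normalized. Bowtie and DESeq are named in the submitters' processing notes, without versions. The 61 rows spelled mir, 33 of them beside the same name spelled miR, are not explained in the sources used here.

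AA and CTL were compared with edgeR 4.0.16 in R 4.3.3 (glmQLFit, glmQLFTest, TMM normalization, Benjamini-Hochberg adjustment over 367 miRNAs, threshold 0.05). CPM are reads divided by the TMM-scaled library size and multiplied by 1e6, and log2 CPM add a prior count of 2. The standard error is the log2 fold change divided by the square root of F. The fit was tested on simulated data with known changes. Libraries of a group differed by a chi-square of at least 393.9 per degree of freedom, so none was a copy of another. Reads summed over all listed miRNA rows were 13412373 to 15616670 per library. Hairpins were folded with RNAfold 2.7.2. DESeq2 1.42.0 was an alternative, beside other scalings and filters, a block for the title number, and fits that each omitted 1 library.

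The members and lists were chosen with earlier results of these data known. The miRNAs named are the members, the 5 most and 3 least like miR-187 by Pearson's r, the 5 most like by deviations from group means, its neighbours in level and sequence, and list members.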

Additional observations from a re-analysis of the deposited data

Results flagged for a closer look

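Within groups of 4 libraries, a value was singled out where its gap to the nearest library took up more of the group's range than Dixon's 95% critical value allows. This was the case for 7 values in 60 groups. Chance flags about 1 in 20 independent groups, but these miRNAs were in part chosen by the same values, so the 2 rates are not compared. rno-miR-187 was at 245 CPM in AA 4 against 21.3 to 39.0 in the other AA libraries. 5 more values were in the same library. rno-miR-511* was at 830 CPM against 69.5 to 134, and rno-miR-34a was at 877 CPM against 442 to 516. rno-miR-350 was at 12.6 CPM against 5.41 to 6.02, rno-miR-542-5p at 17.2 against 5.44 to 6.65, and rno-miR-325-3p at 2.43 against 0.928 to 1.14. miR-187 was itself chosen by its counts in these libraries. rno-miR-511*, rno-miR-350, rno-miR-542-5p and rno-miR-325-3p were named because their levels or deviations run with those of miR-187, so their place in AA 4 is not independent of it. In CTL 1, rno-miR-146b was at 512 CPM against 332 to 349. The 60 groups did not take in rno-miR-1249 and rno-miR-328a, which stood apart in both libraries numbered 4. rno-miR-1249 was at 12.5 CPM in AA 4 against 0.705 to 2.24, and at 18.25 in CTL 4 against 0.434 to 1.25. rno-miR-328a was at 122.5 CPM in AA 4 against 21.5 to 27.05, and at 106 in CTL 4 against 14.35 to 24.5.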

How the results depend on the processing

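The log2 fold change of rno-miR-187 was positive in every alternative run, from 2.12 without AA 4 to 3.96 without AA 3, and 2.34 without AA 4 and CTL 4, where 52 miRNAs were called. With total counts it was 3.85, while the median of all tested miRNAs moved up by 0.21, and with the number as a replicate block, which pairs libraries of the same number, it was 2.92, a fold of 7.58 against 12.4, and the calls numbered 78 instead of 60. Same-numbered libraries correlated in their deviations at 0.05, 0.197, 0.145 and 0.35 over 367 miRNAs, and 6 of 8 libraries correlated best with their own number, and the numbers, which no source ties to a shared litter or day, were not taken as pairs. The count of called miRNAs was 35 to 51 with each library left out, with 35 without CTL 2 and 37 without CTL 1, where fewer libraries were fitted. The log2 ratio of rno-miR-187* was 2.22 to 3.5 and that of rno-mir-187* 1.55 to 2.74 in those settings, the latter highest without CTL 3, which holds 4 of its 7 control reads. DESeq2 size factors gave 2.80 and 1.95. For both rows the DESeq2 test, the block and 10 reads in all 8 libraries were not run, since those fits leave them out. With total counts, 79.4% of calls were higher in AA in place of 63.3%. Of 391 alternative values of the 27 named miRNAs, 330 kept their direction and side of the threshold, 53 lost the call, 8 gained it (6 for rno-miR-191, 1 of them with the block at -0.68, and 2 for rno-miR-450a) and 0 reversed. The depth limits the opposite arm, with 15 control reads in all.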
